A study of Mus musculus with 9 samples.

Results

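The Dlk1-Meg3 domain is an imprinted cluster on mouse chromosome 12, and 6 of its long transcripts were examined here: the coding genes Dlk1, Rtl1 and Dio3 and the noncoding RNAs Meg3, Rian and Mirg. Members were the probe sets of the array whose annotation gives 1 of these symbols and no other. Of the 6 genes named, 5 had such a probe set, 1 each, among 19938 genes measured in this way. Mirg was listed only together with Mir410 on a shared probe set, so its values are given as those of that mixed probe set and it is not counted as measured. The domain was chosen for study with its levels in these tumours already known, above all those of Meg3 and Rian, so the differences between the groups below are descriptions, given without p-values.

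Total RNA of 9 mouse liver samples had been hybridised to Affymetrix Mouse Gene 1.0 ST arrays, 1 array per sample. The 4 control livers came from monotransgenic mice with the Rosa26-lsl-NICD allele, a Notch1 intracellular domain (NICD) behind a stop cassette that stays silent without Cre recombinase. The 5 hepatocellular carcinomas (HCC) came from bitransgenic AFP-Cre/Rosa26-lsl-NICD mice, whose Cre, driven by the alpha-fetoprotein promoter of hepatic precursors, removes the stop. All animals were on a hybrid 129 x C57BL/6 background and 6 to 12 months old, and all carried the Rosa26 allele. Tumour-free liver with active NICD, and non-tumour tissue of the bitransgenic mice, were not analysed here, so the transgene and the tumour state cannot be told apart. Values are RMA intensities on the log2 scale, in which a step of 1 doubles the signal; the depth of an array has no count behind it, and the number of arrays limits the precision. Because probes of different genes bind with different strength, each probe set is compared only with itself across arrays. The sums given for marker lists are the exception.

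In an imprinted domain the active copy of a gene depends on the parent it came from. On the maternal chromosome the domain makes Meg3, Rian and Mirg, long noncoding RNAs that follow each other in the same direction and carry many snoRNAs and microRNAs along their length, while the paternal chromosome makes Dlk1, Rtl1 and Dio3. The cluster is active in the fetus and in the fetal liver and is largely shut down in adult hepatocytes, and gain of its RNAs is a known feature of subsets of liver cancer in mouse and human.

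The microRNA hairpins of the domain are the densest set of measured points inside it, and sequences of some with large mean differences are shown first. The RefSeq gene table places 61 microRNA genes and 19 snoRNA genes from Dlk1 to Dio3. Of these microRNA genes 40 had a single-symbol probe set, and all 40 matched a mature sequence in RefSeq (build GRCm38.p6), 76 mature sequences in all. The sequences below belong to Mir376b, Mir434 and Mir136, the hairpins with the 3 largest differences, and to Mir127, which lies beside Mir434; the seed (bases 2 to 8) is in capitals, and all are on the plus strand of chromosome 12. Mir127, Mir434 and Mir136 lie in the stretch between Meg3 and Rian, within the RefSeq span of Rtl1, and Mir376b lies between Rian and the end of Mirg.
mmu-miR-127-5p, chr12:109592854-109592875: cUGAAGCUcagagggcucugau
mmu-miR-127-3p, chr12:109592888-109592909: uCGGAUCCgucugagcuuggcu
mmu-miR-434-5p, chr12:109594528-109594549: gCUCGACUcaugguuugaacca
mmu-miR-434-3p, chr12:109594565-109594586: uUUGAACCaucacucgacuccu
mmu-miR-136-5p, chr12:109595331-109595352: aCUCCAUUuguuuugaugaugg
mmu-miR-136-3p, chr12:109595366-109595387: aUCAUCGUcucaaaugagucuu
mmu-miR-376b-5p, chr12:109723471-109723492: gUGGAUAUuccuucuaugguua
mmu-miR-376b-3p, chr12:109723508-109723528: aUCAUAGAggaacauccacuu

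These 8 sequences carry 8 different seeds, and among all 76 only 2 seeds occurred more than once. The 5p arm of miR-376b shares its seed with that of miR-376c, and the 3p arm of miR-379 shares its seed with that of miR-411. They are printed so that the hairpins of each pair can be set side by side further on. Mir376c, Mir379 and Mir411 had low signal, which limits that comparison.
mmu-miR-376c-5p, chr12:109722733-109722754: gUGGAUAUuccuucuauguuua
mmu-miR-379-3p, chr12:109709102-109709123: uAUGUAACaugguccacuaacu
mmu-miR-411-3p, chr12:109710225-109710246: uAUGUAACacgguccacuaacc
A probe set on a hairpin reads any labelled RNA that covers the hairpin. It does not separate a mature microRNA from its precursor or from the long host transcript, and the column kit named for the extraction keeps mainly longer RNA.

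Meg3, the maternally expressed RNA at the head of the noncoding transcripts, was higher in every tumour. It measured 7.43, 7.01, 7.10 and 7.27 on control arrays 1 to 4 and 10.26, 9.72, 10.36, 9.49 and 9.13 on HCC arrays 1 to 5. The groups did not overlap, and the lowest tumour, HCC array 5, lay well above the highest control. The means were 7.20 ± 0.19 (SD, n = 4) and 9.79 ± 0.52 (SD, n = 5), a log2 difference of 2.59 (SE 0.25), which is 6.02-fold.

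Rian, the next long RNA, host of a string of box C/D snoRNAs, was high in 4 of the 5 tumours. Its single-symbol probe set gave 5.75, 4.50, 4.32 and 4.75 on the control arrays and 8.10, 8.06, 8.12, 8.17 and 5.40 on the HCC arrays. HCC arrays 1 to 4 were almost level with each other, whereas HCC array 5 lay below control array 1, so the groups overlapped through that tumour. The means were 4.83 ± 0.64 (SD, n = 4) and 7.57 ± 1.21 (SD, n = 5), a log2 difference of 2.74 (SE 0.59). Without HCC array 5 the difference was 3.28 (SE 0.28).

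A second probe set on Rian, annotated to Rian together with the snoRNA AF357355, is not a member by the rule. It gave 5.87, 5.10, 5.77 and 5.91 in control liver and 10.29, 9.93, 9.55, 9.22 and 7.60 in HCC. Here every tumour lay above every control, and HCC array 5 was again the lowest tumour, with a log2 difference over all arrays of 3.65 (SE 0.49). DQ267102, a snoRNA gene within Rian, ranked the tumours in the same order, with 6.55, 6.60, 7.24 and 6.49 in control liver and 9.59, 9.03, 8.97, 8.75 and 7.64 in HCC (log2 difference 2.07, SE 0.35). Its neighbour DQ267101 was weaker, with 4.24 to 4.65 in control liver and 4.64 to 5.42 in HCC, and overlapped between the groups (log2 difference 0.62, SE 0.18). HCC array 5 was therefore above every control on 3 of these 4 probe sets of the Rian stretch, and within the control range on the single-symbol probe set of Rian.

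Mirg, the most distal of the long noncoding RNAs and host of the last part of the microRNA cluster, was represented by the probe set it shares with Mir410. This gave 4.80, 4.37, 4.36 and 4.85 in control liver and 6.70, 6.98, 8.15, 5.83 and 5.63 in HCC. All tumours lay above all controls, HCC array 3 was the highest and HCC array 5 the lowest (log2 difference 2.06, SE 0.47). The highest tumour was HCC array 1 on the Rian and AF357355 probe set and HCC array 3 on this one. On Meg3 HCC array 3 led HCC array 1 narrowly (10.36 and 10.26). On the single-symbol probe set of Rian HCC arrays 1 to 4 were almost level. In every long-RNA probe set of the maternal side HCC array 5 was the lowest tumour.

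**Figure D1:**
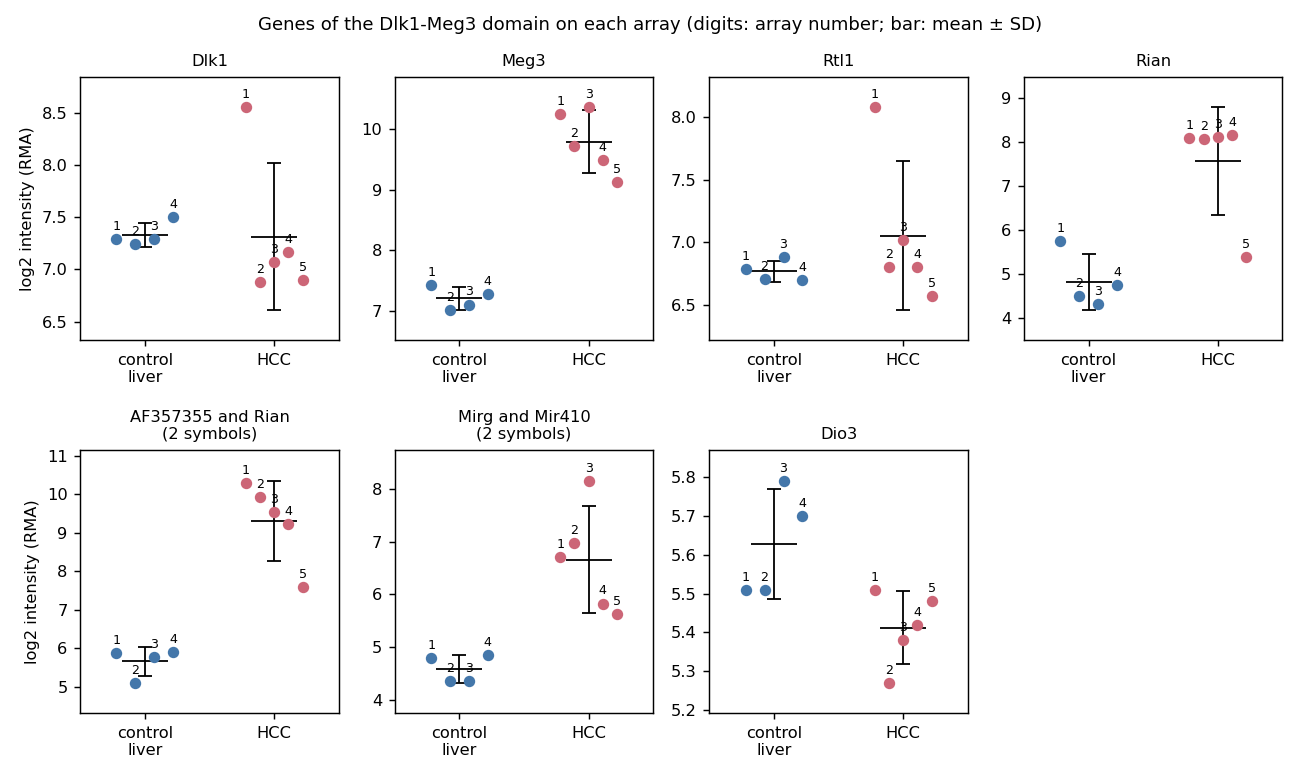
Log2 RMA intensity (vertical axes, 1 scale per panel) of each probe set annotated to a gene of the domain, in 4 control livers and 5 HCC, with a point per array labelled by its number and a bar for mean ± SD. Meg3 separates the groups, Rian does so except for HCC array 5, and Dlk1 and Rtl1 stand high on HCC array 1.

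Dlk1, a transmembrane EGF-repeat protein related to the Notch ligands and known from hepatoblasts and preadipocytes, was high in 1 tumour. It measured 7.29, 7.24, 7.29 and 7.50 in control liver and 8.55, 6.88, 7.07, 7.17 and 6.90 in HCC. HCC array 1 lay above all controls and the other 4 HCC arrays lay below all of them. The group means were therefore nearly equal, 7.33 ± 0.12 (SD, n = 4) and 7.31 ± 0.70 (SD, n = 5), with a log2 difference of -0.02 (SE 0.32) that describes none of the tumours; without HCC array 1 it was -0.33 (SE 0.10).

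Rtl1, a retrotransposon-derived gene needed in placenta and muscle, showed the same single high tumour. It measured 6.79, 6.71, 6.88 and 6.70 in control liver and 8.08, 6.80, 7.02, 6.80 and 6.57 in HCC. Only HCC array 1 stood clearly above the control range, HCC array 3 exceeded it slightly and HCC array 5 lay below it. The log2 difference was 0.28 (SE 0.27) over all arrays and 0.02 (SE 0.10) without HCC array 1.

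Dio3, the deiodinase that inactivates thyroid hormone and the most distal coding gene of the domain, was not high in any tumour. It measured 5.51, 5.51, 5.79 and 5.70 in control liver and 5.51, 5.27, 5.38, 5.42 and 5.48 in HCC. HCC arrays 2 to 5 lay below every control by a small margin, and the groups met at HCC array 1 (log2 difference -0.22, SE 0.09). On HCC array 1, the tumour with high Dlk1 and Rtl1, Dio3 stood at the level of the lowest controls.

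Every HCC array lay above every control array for 1 of the 5 measured members, Meg3, against 5.63% of all genes, and none lay wholly below, against 3.86% of all genes. These counts come from the contrast the genes were chosen on and are given as description. In limma the threshold for a called gene was an adjusted p of 0.05. It was passed by 0.858% of all genes as higher and by 0.16% as lower. No call is given for the members, because they were chosen on this contrast.

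Taking every probe set annotated to a gene from Dlk1 to Dio3, 50 in all, 10 had every HCC array above every control array, against 4.24% of all 35512 probe sets of the array, and 0 had every HCC array below, against 3.01%. The 10 were Meg3, the Rian and AF357355 probe set, DQ267102, the Mirg and Mir410 probe set and the hairpins Mir376b, Mir376a, Mir382, Mir495, Mir377 and Mir543. Some of these hairpins separated the groups only narrowly. The lowest tumour and the highest control were 4.11 and 4.09 for Mir543, 4.18 and 4.15 for Mir377, and 3.33 and 3.27 for Mir495. By single tumours, 31, 23, 30, 28 and 14 of the 50 exceeded every control on HCC arrays 1 to 5, against 25.7%, 21.5%, 22.3%, 27.8% and 18.3% of all probe sets on the same arrays. HCC array 5 thus had the fewest in the domain, and also the fewest over the whole array.

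**Figure D2:**
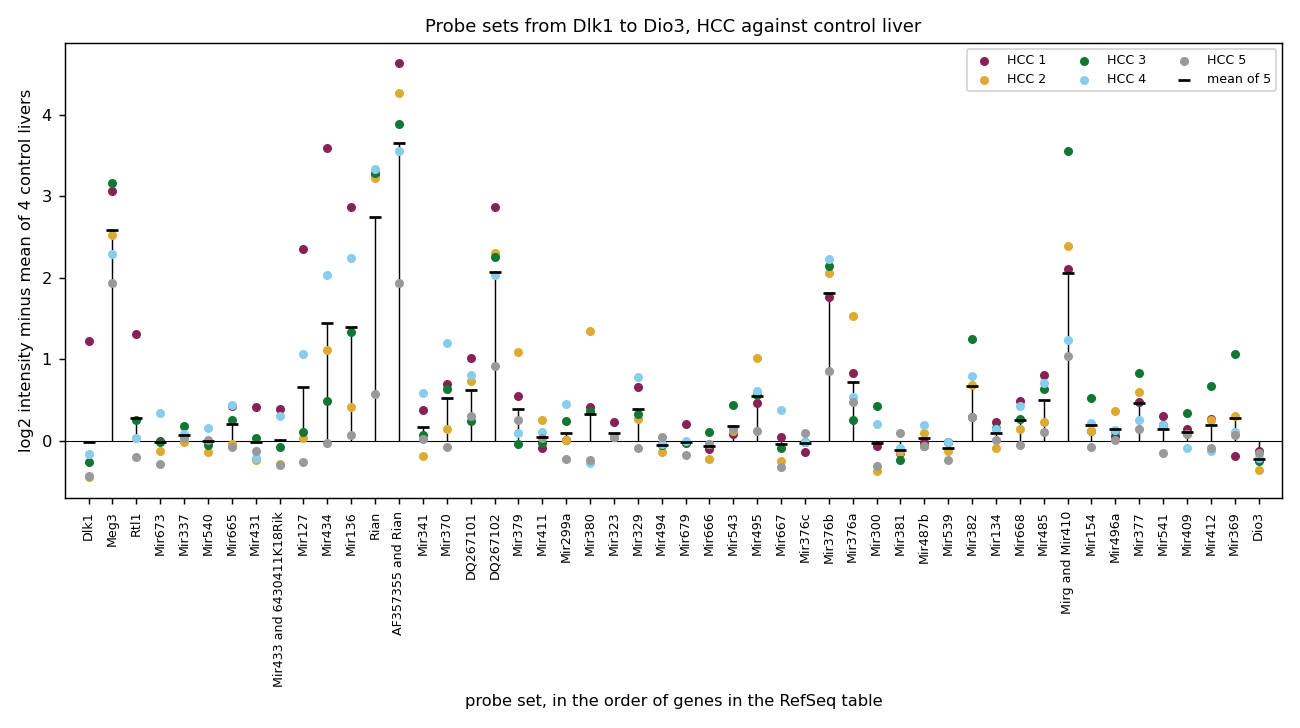
Log2 intensity minus the mean of the 4 control livers (vertical axis) for 50 probe sets in the order of their genes from Dlk1 to Dio3 (horizontal axis), with a coloured point per HCC array and a black dash for the mean of 5. The long noncoding RNAs stand high in most tumours, a stretch of hairpins before Rian is high on HCC arrays 1 and 4, and most other hairpins stay near 0.

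Between Meg3 and Rian, the 8 single-symbol hairpins lie within the RefSeq span of Rtl1, and the mature sequences printed from this stretch are on the plus strand. Products of several microRNA genes of this stretch, not only of Mir127, Mir434 and Mir136, are known to pair fully with the Rtl1 transcript from the opposite strand. Mir127, Mir434 and Mir136 were high in HCC arrays 1 and 4. Mir434 gave 3.19, 3.80, 3.50 and 3.66 in control liver and 7.13, 4.66, 4.03, 5.58 and 3.51 in HCC. Mir136 gave 3.92, 4.18, 3.70 and 3.84 in control liver and 6.78, 4.32, 5.24, 6.15 and 3.98 in HCC. HCC array 1 was the highest and HCC array 4 the next on both, HCC arrays 2 and 3 also exceeded every control, and HCC array 5 lay within the control range on both.

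Mir127 gave 6.61, 6.51, 6.30 and 6.58 in control liver and 8.85, 6.54, 6.61, 7.56 and 6.24 in HCC. Only HCC arrays 1 and 4 stood clearly above the controls. The log2 differences of the group means were 1.44 (SE 0.65) for Mir434, 1.39 (SE 0.54) for Mir136 and 0.66 (SE 0.48) for Mir127. On HCC array 1 the hairpins and Rtl1 were both high, while on HCC array 4 the hairpins were high and Rtl1, at 6.80, was within the control range. No source used here says whether these probe sets separate the strands. The other 5 single-symbol hairpins of the stretch (Mir673, Mir337, Mir540, Mir665 and Mir431) had differences of -0.02 to 0.20, and of the 8 none had all tumours above all controls. A probe set shared by Mir433 and 6430411K18Rik, also within the RefSeq span of Rtl1, differed by 0.01 (SE 0.16).

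Within Rian, the hairpin Mir370 gave 6.78, 6.27, 6.51 and 6.68 in control liver and 7.26, 6.71, 7.19, 7.76 and 6.49 in HCC, overlapping between the groups (log2 difference 0.52, SE 0.25). Mir341 differed less (log2 difference 0.17).

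Between Rian and the end of Mirg lie 30 measured hairpins, and their median log2 difference was 0.14, against -0.03 over all probe sets of the array. Mir376b was the clearest, with 3.58, 3.42, 3.36 and 3.51 in control liver and 5.23, 5.53, 5.62, 5.70 and 4.33 in HCC (log2 difference 1.81, SE 0.26). HCC arrays 1 to 4 were close together and HCC array 5 was lower but still above every control, an order of arrays like that of Rian rather than that of Mir434. Mir376c, whose 5p arm has the same seed, stayed at 2.51 to 2.74 in control liver and 2.44 to 2.67 in HCC, with no separation.

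Mir376a gave 2.54, 2.86, 2.67 and 2.69 in control liver and 3.52, 4.22, 2.94, 3.23 and 3.16 in HCC (log2 difference 0.72, SE 0.24), highest on HCC array 2. Mir495, also highest on HCC array 2, differed by 0.55 (SE 0.16) and Mir377 by 0.46 (SE 0.14). Mir382 differed by 0.67 (SE 0.22) and was highest on HCC array 3, although HCC array 5 at 4.39 barely exceeded control array 1 at 4.38. In the pair of miR-379 and miR-411, Mir379 gave 2.86 to 3.21 in control liver and 3.67, 4.21, 3.08, 3.21 and 3.38 in HCC. Its largest value was on HCC array 2, and HCC arrays 3 and 4 did not exceed the controls. Mir411 gave 3.01 to 3.53 in control liver and 3.17 to 3.51 in HCC.

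Low signal limits what these hairpins can show. Of the 30 between Rian and the end of Mirg, 14 had a mean below 4.16, the 10th percentile of all values on the arrays. Among them were Mir376a, Mir376c, Mir379, Mir411, Mir495 and Mir543. A hairpin at such low signal cannot show that it differs from the one that shares its seed. Of the 8 between Meg3 and Rian 0 did, although the controls of Mir434 lay at 3.80 or less. Detection calls were not used here, so a low value does not show that a transcript was absent.

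**Figure D3:**
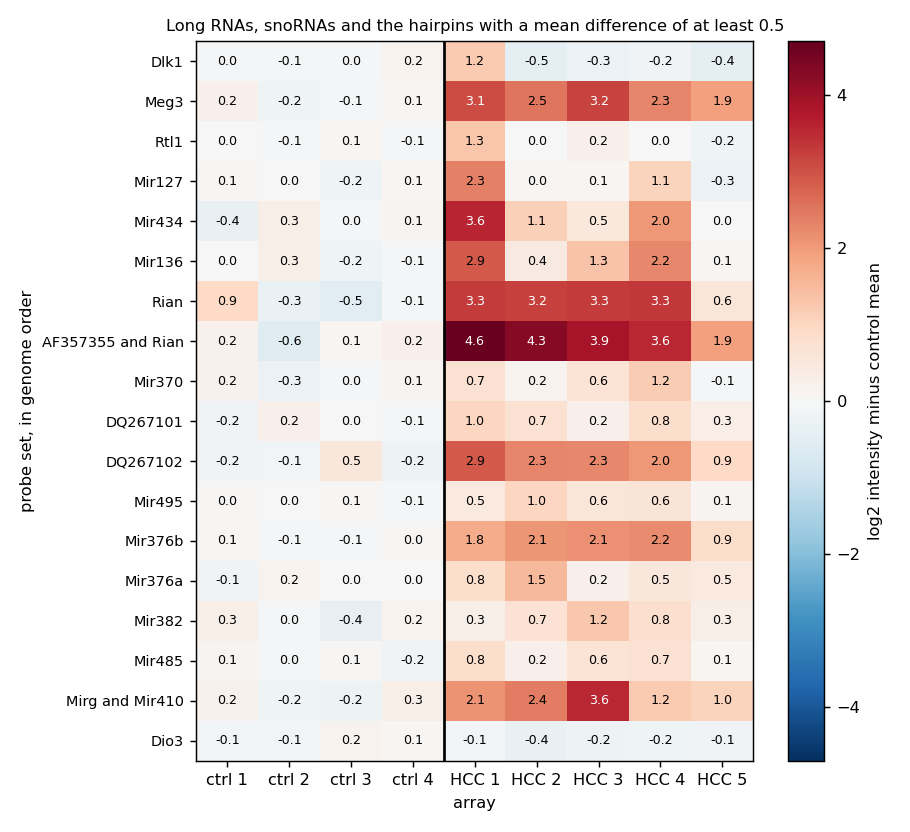
Log2 intensity minus the mean of the control livers (colour and printed value) on each of the 9 arrays for the long RNAs, the snoRNAs and the hairpins with a mean difference of at least 0.5. Dlk1, Rtl1, Mir127, Mir434 and Mir136 peak on HCC array 1, and HCC array 5 has the smallest values of the tumours for Meg3, Rian, DQ267102 and Mir376b.

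Genes on either side of the domain were examined next. Of the 20 nearest measured protein-coding genes, 10 on each side, none passed in limma in either direction (2 higher and 3 lower at an unadjusted p under 0.05), where 1.02% of all genes did (0.858% as higher and 0.16% as lower), and their median log2 difference was 0.03. Over all 19938 genes, 2095 were higher and 1964 lower at that unadjusted limma threshold. Begain, next to Dlk1, gave 5.73 ± 0.07 and 5.58 ± 0.16 (log2 difference -0.15, limma adjusted p = 0.394), and Ppp2r5c, a phosphatase subunit on the far side of Dio3, gave 9.35 ± 0.12 and 9.52 ± 0.29 (0.17, limma adjusted p = 0.531; -0.04 with the mean of its probe sets). The widest difference on either side, named after its values were seen, was that of the mitochondrial carrier Slc25a47, which gave 9.57 to 9.81 in control liver and 7.30 to 9.35 in HCC (log2 difference -1.47, limma adjusted p = 0.119); without HCC array 5 it passed as lower (-1.76, limma adjusted p = 0.0299), as it did with array weights (-1.50, limma adjusted p = 0.0498). Mok, also named after its values were seen, was the flanking gene with all tumours above all controls (5.51 to 5.67 and 5.76 to 6.50). It was 1 of the 20, against 5.63% of all genes. Slc25a47 was the 1 of the 20 with all tumours below all controls, against 3.86% of all genes.

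**Figure D4:**
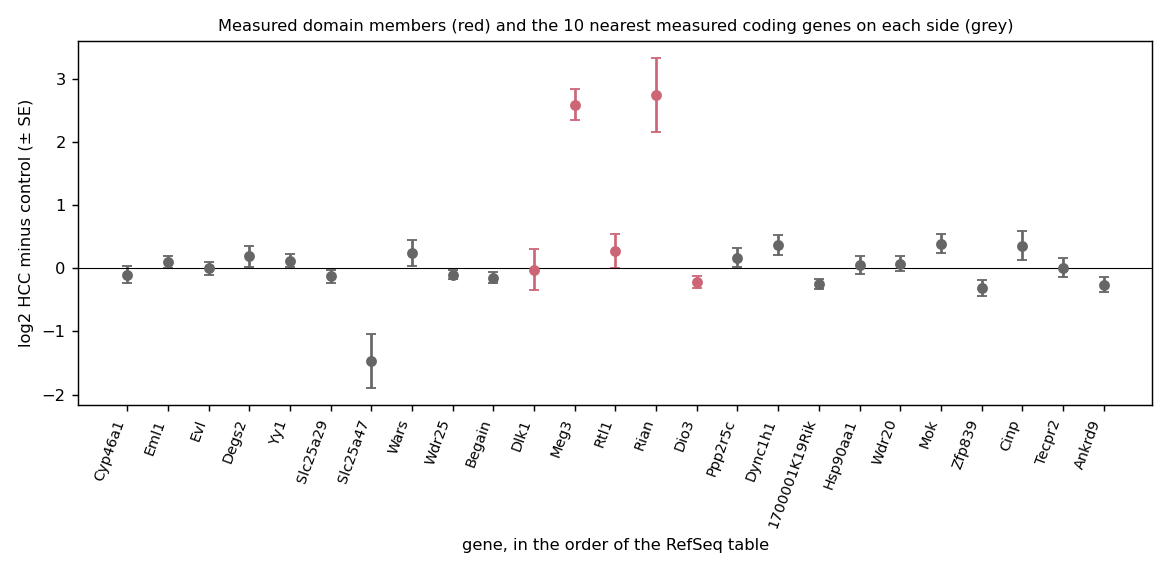
Log2 difference of HCC minus control liver with its SE from limma (vertical axis) for the 5 measured members in red and the 10 nearest measured protein-coding genes on each side in grey, in genome order. Meg3 and Rian stand above 2, and among the flanking genes Slc25a47 lies lowest at -1.47.

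The RefSeq promoter windows of Meg3 and Dlk1 (250 bases before to 50 after the annotated start, build GRCm38.p6, plus strand) are shown because these neighbours, read from opposite parental chromosomes, differed in how many tumours had high signal. RefSeq held a window for 5 of the 6 genes, Rtl1 being the exception. Motifs were searched on both strands: TGACGTCA, the cAMP response element, TGGGAA, the core bound by the Notch partner RBPJ, and TGCCGC, the core bound by the imprint protector ZFP57. Capitals mark the matches.
Meg3, chr12:109540746-109541045: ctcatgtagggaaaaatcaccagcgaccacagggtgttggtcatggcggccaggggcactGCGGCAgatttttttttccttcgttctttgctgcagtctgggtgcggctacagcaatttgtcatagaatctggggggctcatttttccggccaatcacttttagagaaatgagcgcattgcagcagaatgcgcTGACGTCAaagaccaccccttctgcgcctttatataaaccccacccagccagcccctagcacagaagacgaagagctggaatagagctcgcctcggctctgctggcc
Dlk1, chr12:109452573-109452872: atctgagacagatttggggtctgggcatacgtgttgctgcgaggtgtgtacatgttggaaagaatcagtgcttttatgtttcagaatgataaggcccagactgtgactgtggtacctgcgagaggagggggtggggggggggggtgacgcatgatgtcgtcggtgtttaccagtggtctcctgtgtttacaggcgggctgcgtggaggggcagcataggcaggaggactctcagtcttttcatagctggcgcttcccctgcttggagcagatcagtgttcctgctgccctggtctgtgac
The Meg3 window held 1 match to the cAMP response element, starting 57 bases before the annotated start, and 1 to the ZFP57 core. The cAMP response element occurred in 1.79% of 32851 windows of the same length and the ZFP57 core in 11.6%. TGGGAA was in neither printed window and in 25.6% of all windows. A second, downstream Meg3 window held 2 matches to TGGGAA, and the Rian and Mirg windows 1 each. The Dlk1 window held none of the 3 motifs. A match describes the letters and says nothing of binding in these livers.

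Proteins that set or keep imprints included 1 called gene. Of 21 measured, 1 was higher in limma and none lower, where 0.858% of all genes were higher and 0.16% lower. At an unadjusted limma p under 0.05 there were 9 higher and 1 lower, against 2095 and 1964 of all 19938 genes. Every HCC array lay above every control array for 6 of the 21, against 5.63% of all genes, and the median log2 difference was 0.31 against -0.03 over all genes. The gene that rose was Hells, a chromatin remodeller of replicating cells that aids DNA methylation, from 5.81 ± 0.49 (SD, n = 4) to 8.55 ± 0.75 (SD, n = 5), 6.67-fold (limma adjusted p = 0.0245). This call was lost without any 1 of the 4 control arrays or without HCC array 3 or 4 (log2 difference 2.56 to 2.96, limma adjusted p = 0.0582 to 0.107).

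Of 23 other imprinted genes measured, 1 was higher in limma and none lower, against the same 0.858% and 0.16% of all genes. At an unadjusted limma p under 0.05, 6 were higher and 0 lower, against the same 2095 and 1964 of all 19938 genes. In 3 of the 23 every HCC array lay above every control array and in 1 below, against 5.63% and 3.86% of all genes. The median log2 difference was 0.20. The gene that rose was Ppp1r9a, which encodes neurabin, an actin-binding protein, from 6.34 ± 0.16 to 7.83 ± 0.53, 2.81-fold (limma adjusted p = 0.0378), a call lost without any 1 control array or HCC array 2, 3 or 4 (log2 difference 1.41 to 1.56, limma adjusted p = 0.0637 to 0.138). Igf2, the imprinted fetal growth factor, gave 6.19 to 6.43 in control liver and 12.10, 11.65, 6.41, 12.06 and 9.31 in HCC (log2 difference 4.03, limma adjusted p = 0.104; 5.00 and 0.0204 without HCC array 3). HCC array 3, in which Igf2 stayed at the control level, was the tumour with the highest Meg3 (10.36). HCC array 1, with the highest Igf2, had the next highest Meg3 (10.26).

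Lists built around single members showed no called gene. With 0.858% of all genes called higher and 0.16% lower, lists this small would hold few or no calls at those shares. At an unadjusted limma p under 0.05, 2095 of all 19938 genes were higher and 1964 lower. Of 14 measured Notch ligands, receptors and partners related to Dlk1, none passed (2 higher at an unadjusted p under 0.05); Notch2 had the smallest adjusted p (7.69 ± 0.09 and 8.24 ± 0.39, limma adjusted p = 0.151), and the list median was -0.04. Of 16 genes of thyroid hormone action, the pathway Dio3 acts on, none passed (1 higher and 6 lower unadjusted). Thrsp, a thyroid-responsive lipogenic gene, gave 12.35 to 12.94 in control liver and 9.65, 10.05, 9.81, 9.77 and 12.53 in HCC (limma adjusted p = 0.0871), with HCC array 5 at the control level; without that array it passed (log2 difference -2.76, limma adjusted p = 3.45e-04) and with array weights it also passed (-2.11, limma adjusted p = 0.0462). The median of the thyroid list was -0.20. Of 8 relatives of Rtl1 none passed (1 higher and 1 lower unadjusted); Peg10, another imprinted retrotransposon-derived gene, gave 6.52 ± 0.26 and 8.17 ± 1.22 (limma adjusted p = 0.155), and the list median was -0.01. Of 8 genes of the p53 response, to which Meg3 has been linked, none passed (1 lower unadjusted), with Perp at 8.90 ± 0.06 and 8.32 ± 0.49 (limma adjusted p = 0.196) and a median of -0.03.

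Markers of cell types were set beside these results, since in bulk tissue fewer cells of a type and less RNA per cell cannot be told apart. In the summed intensities the probe sets with the strongest signal weigh most, so a sum does not describe every marker of its list. Over all 19938 genes limma called 0.858% higher and 0.16% lower, and lists this small would hold few or no calls at those shares. At an unadjusted limma p under 0.05, 2095 of all genes were higher and 1964 lower. Hepatocyte markers were present on all arrays, with none of 8 called (1 lower unadjusted) and a summed linear intensity of 65185 to 72156 in control liver and 51693 to 68602 in HCC; the smallest adjusted p was that of the urea cycle enzyme Cps1 (13.27 ± 0.10 and 12.44 ± 0.50, limma adjusted p = 0.106; 0.0342 without HCC array 5). Oncofetal markers had 1 of 7 higher in limma, the same 1 as at an unadjusted p under 0.05, and a summed intensity of 546 to 756 in control liver and 1125 to 7618 in HCC. The gene that rose was Cd24a, a surface glycoprotein of progenitor cells (8.02 ± 0.43 to 10.95 ± 0.99, limma adjusted p = 0.0347), a call lost without any 1 control array or HCC array 2 or 4 (limma adjusted p = 0.0635 to 0.132). The sum in HCC rested mostly on Cd24a and, on HCC array 2, also on Spink1 (11.98). Log2 differences were 2.31 for Spink1, 0.96 for Gpc3, 0.77 for Igf2bp3, 0.22 for Afp, 0.09 for Lin28b and 0.08 for Igf2bp1. Afp, the defining oncofetal marker, named after its values were seen, gave 6.24 to 7.32 in control liver and 8.18, 6.90, 6.80, 6.21 and 7.01 in HCC. It was above the controls only on HCC array 1, the tumour with high Dlk1. That array exceeded every control on 25.7% of all probe sets. Gpc3, Cd24a and Igf2bp1 were also highest on HCC array 1 (10.48, 12.08 and 6.04). Spink1 and Igf2bp3 were highest on HCC array 2 (11.98 and 8.06) and Lin28b on HCC array 4 (4.85). Of the biliary markers 1 of 5 was higher (2 unadjusted), Sox9 (7.35 ± 0.14 to 9.50 ± 0.65, limma adjusted p = 0.0228; 0.0629 to 0.103 without any 1 control array), and sums of 444 to 482 and 905 to 3557.

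No stellate or fibroblast marker of 12 passed (5 higher and 1 lower unadjusted), and their sums overlapped (4600 to 5557 and 3446 to 6006); the smallest adjusted p was that of Vim (8.87 ± 0.33 and 9.58 ± 0.31, limma adjusted p = 0.108). Among 8 endothelial markers none passed (2 lower unadjusted; sums 2023 to 2438 and 1625 to 2805; Kdr 8.38 ± 0.12 and 7.74 ± 0.38, limma adjusted p = 0.113; 0.0486 without HCC array 5). None of 6 adipocyte markers passed (1 higher unadjusted; sums 1119 to 1301 and 1247 to 2157; Fabp4 8.53 ± 0.32 and 9.52 ± 0.62, limma adjusted p = 0.130; 0.0145 without HCC array 5). Nor did any of 7 myeloid (sums 1968 to 4636 and 2165 to 8666; Clec4f 9.65 ± 0.54 and 8.55 ± 1.21, limma adjusted p = 0.308), 5 lymphoid (445 to 506 and 372 to 582; Cd8a 6.65 ± 0.07 and 6.51 ± 0.15, limma adjusted p = 0.394), 5 erythroid (531 to 611 and 398 to 1636; Rhag 4.39 ± 0.03 and 4.02 ± 0.13, limma adjusted p = 0.0607; 0.0391 without HCC array 5 and 0.0236 with array weights; 2 lower unadjusted) or 8 neuroendocrine and pituitary markers (560 to 619 and 525 to 570; Gcg 5.45 ± 0.15 and 5.28 ± 0.09, limma adjusted p = 0.307). In the myeloid, lymphoid and neuroendocrine lists 0 genes passed in limma at an unadjusted p under 0.05 either. Of all 19938 genes 2095 were higher and 1964 lower at that unadjusted threshold, and limma called 0.858% higher and 0.16% lower. No marker was at 0 on this intensity scale, and the part of any cell type in the domain's signal was not tested.

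Xist, the RNA of the inactive X chromosome, was 11.76, 10.68, 10.85 and 4.83 on control arrays 1 to 4 and 11.14, 11.13, 4.98, 5.10 and 4.92 on HCC arrays 1 to 5, so both groups mixed high and low arrays. Meg3 was 7.27 on the control array with low Xist, inside the range of the other controls. Fitted with Xist as a covariate, the log2 differences were 2.65 (SE 0.27) for Meg3, 2.96 (SE 0.63) for Rian, 0.42 (SE 0.26) for Rtl1, 0.09 (SE 0.34) for Dlk1 and -0.24 (SE 0.09) for Dio3.

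Likeness to a member was taken over the 9 arrays as the root mean square difference between profiles of log2 intensity, each minus its own control mean. The 5 genes nearest to Meg3 were the epithelial transcription factor Ehf (0.33 log2 units), the tetraspanin Cd63 (0.42), Dync2li1 of the ciliary dynein (0.51), the guidance protein Sema5a (0.51) and the growth factor receptor Fgfr1 (0.53). Ehf, the nearest, gave 6.49, 6.46, 6.23 and 6.34 in control liver and 9.82, 8.60, 9.50, 7.92 and 8.04 in HCC, highest on HCC arrays 1 and 3, as Meg3 was. Rian had no gene as near: Esm1 (0.67), Trim59 (0.69), Sema5a (0.72), Top2a (0.75) and Cd63 (0.77) came first.

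Dlk1 was closest to genes that were likewise high on HCC array 1 alone. These were Bmp7 (0.20 log2 units), Foxc1 (0.21), Atp8a2 (0.21), Greb1 (0.21) and Zcwpw1 (0.21). Bmp7, a secreted growth factor, gave 6.26 to 6.66 in control liver and 7.53, 6.22, 6.45, 6.11 and 6.45 in HCC, so HCC array 1 was the only tumour above the controls. These neighbours were picked for their likeness, which is a description of 9 arrays.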

How the data were processed

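The 9 arrays are numbered as in the labels. The authors deposited probe set intensities on a linear scale (3.91 to 21468), made with RMA, per the submitters' processing notes; array medians were 91.5 to 101. GenePattern and R are named for preprocessing per the labels of the series, and their versions are not given in the sources used here. Intensities were transformed to log2 with no pseudocount. Of 35512 probe sets, 21789 had 1 gene symbol in the platform annotation, 1621 several and 12102 none. For 999 genes with several probe sets the one with the highest mean was kept, leaving 19938 genes, which were compared with limma 3.58.1 in R 4.3.3 (lmFit, eBayes, group as the only term, two-sided, Benjamini-Hochberg adjustment). SEs of single-symbol genes are those of this fit, and SEs of the hairpins, snoRNAs and mixed probe sets those of the same fit over all 35512 probe sets; the gene fit was tested on simulated data. No label links an array to an animal, so p-values reflect only the spread between arrays, which may be technical. The order of genes and the hairpin and promoter sequences came from RefSeq tables (GRCm38.p6); the array's own build is not given in the sources used here.

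Members, lists and alternatives were chosen with earlier results of these data known. The 16 gene lists cover imprint regulators, other imprinted genes, thyroid hormone action, Notch partners, Rtl1 relatives, the p53 response and 10 cell types. From each list up to 3 called genes with the largest difference, or without a call the one of smallest adjusted p, are named, with the nearest flanking gene on each side, Xist and the 5 nearest profiles to Meg3, Rian and Dlk1; Igf2, Afp, Slc25a47 and Mok were added after their values were seen. No label says that same-numbered arrays are paired, so the numbers were not taken as pairs. The deviations of same-numbered arrays from their group means correlated at -0.00, 0.32, -0.03 and -0.08. Arrays of different numbers were not compared in this way, so the 0.32 has no baseline. Alternatives were a filter on low values, 2 other scalings, eBayes with trend, array weights, mean probe sets, single probe sets, a replicate block, Xist as covariate and leaving out each array. Scanner files and scan dates were not used here.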

Additional observations from a re-analysis of the deposited data

Results flagged for a closer look

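In 38 groups of arrays (19 of the 50 probe sets of the domain, in control liver and in HCC), 3 had a single array set far apart from the others. Chance gives about 1 in 20, and 3 of 38 is not far from that. The other probe sets of the domain were not tested. Among these, Mir541 was 3.18 on control array 4 and 3.92 on each other control array. Dlk1 was 8.55 on HCC array 1, with the next tumour at 7.17. Rian was 5.40 on HCC array 5, with the next at 8.06. DQ267102 was 7.24 on control array 3, with the next control at 6.60. Rtl1 and Mir127 on HCC array 1 did not reach the same limit.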

How the results depend on the processing

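The differences of the 5 members moved by less than the pooled SD within groups under every alternative run on them; for Dlk1 and Rtl1 HCC array 1 widens that SD, and without it they moved to -0.33 and 0.02, by more than the SD of the controls (0.12 and 0.08). Over 18 alternatives Meg3 ranged from 2.45 to 2.76 and Rtl1 from 0.02 to 0.42, while Dlk1 ranged from -0.33 to 0.09, with no settled sign. Over 17 alternatives Rian ranged from 2.57 to 3.28 and Dio3 from -0.26 to -0.16; both were lost by the filter on low values. The 10 non-overlapping probe sets of the domain became 16 without HCC array 5, where the share of all probe sets was 6.22% in place of 4.24%, and were 9 to 12 otherwise (alternatives added after seeing the data).

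The counts over all genes, 171 higher and 32 lower, moved more. They were 285 and 93 with the filter on low values (fewer genes tested), 503 and 246 with array weights, and 259 and 220 with the replicate block, in which HCC array 5 has no same-numbered control and so drops out of the estimate; quantile normalisation gave 49 lower. Leaving out 1 array gave 10 to 631 higher and 0 to 556 lower, with the maxima without HCC array 5; causes were not tested. Without control array 1, 2 or 3, where limma called 0 lower genes, 1530, 1615 and 1484 were lower at an unadjusted p under 0.05. Named genes outside the domain lost their call in 57 refits and gained it in 14, with 530 on the same side. Hells, Ppp1r9a, Cd24a and Sox9 each lost it in at least 4, as did Ehf, Sema5a, Esm1 and Top2a among the nearest profiles. Cd63 kept its call in every refit. With the replicate block, and so without HCC array 5, Cd24a differed by 2.93 (limma adjusted p = 0.0588) and Thrsp by -2.76 (0.0135); with that array left out and no block the differences were the same 2.93 (0.0213) and -2.76 (3.45e-04). Of the 40 single-symbol hairpins, 14 had a mean signal below the 10th percentile of all values.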
